A study of Mus musculus with 14 samples.

Results

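The signalling components of the transforming growth factor beta (TGF-beta) and bone morphogenetic protein (BMP) pathways were described in 14 single mesangial cells, the contractile, matrix-forming cells between the capillaries of the kidney glomerulus. The components are a list of 48 genes from the 35271 genes of the deposited expression table. They were chosen by name, with earlier results of these data known. They comprise 12 ligands, 4 latent TGF-beta binding proteins, 4 secreted antagonists and binding proteins, 3 coreceptors and decoy receptors, 6 type I receptors, 4 type II receptors, 7 SMAD proteins, 4 corepressors and ubiquitin ligases, and 4 Id genes. All 14 cells were wild type and came from 1 male mouse aged 8 weeks, whose strain is given as C57BL/6 in the study design and as C56BL/6 in the cell labels. They form a single group with no treatment and no comparison group, and each is named by its title, GL_M_ and a number. The cells came from bead-collected, enzymatically dissociated glomeruli and were captured and converted to cDNA on a Fluidigm C1 instrument, a microfluidic device that handles each cell in a separate chamber. With 1 mouse there was no biological replicate, so no test between cells was made, and every value describes these cells.

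In both pathways a secreted dimeric ligand joins type I and type II serine/threonine kinase receptors, and the activated type I receptor phosphorylates receptor SMADs, which enter the nucleus with the shared partner Smad4. TGF-betas and activins act mainly through Smad2 and Smad3, and BMPs through Smad1, Smad5 and their relatives, with the Id genes among the best known BMP targets. TGF-beta is secreted in a latent form bound to matrix proteins, and in the mesangium it is known as a driver of matrix production and of glomerular scarring.

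Expression is given as RPKM, reads per kilobase of gene length scaled to the read total of the cell, so levels can be set against each other between genes. Detection required a value of 1 or more, and a value of 10 or more was called high. The recovered read totals were 6.60 to 23.8 M reads per cell, and 3 reads on a component corresponded to an RPKM of 0.0070 to 0.392, depending on its length and the cell. The cDNA had been amplified, so these floors cover counting error only. Of 9 mesangial markers, 6 to 8 were high in each cell, although the marker Tbx18 was listed at 0 in all 14. These markers were chosen with earlier results of these data known, so they do not test the label of the cells. GL_M_30 also had 9 of 12 endothelial markers high, against 0 to 4 in the other cells, and GL_M_55 had 5 of 11 podocyte markers high, against 0 to 2. A value below 1 need not mean an absent transcript, since even Gapdh, a glycolytic enzyme of every cell, was below 1 in 3 cells.

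Of the 48 components, 32 (66.7%) were detected in at least 1 cell, compared with 29.2% of all genes of the table and 41.8% of its protein-coding genes. Detection in 7 or more cells was found for 7 components (14.6%), compared with 5.93% of all genes and 9.01% of protein-coding genes. Only Eng and Id3 were detected in all 14 cells, which is 4.17% of the components, against 0.454% of all genes and 0.701% of protein-coding genes. A high value in 4 or more cells was found for 12 components (25.0%), against 7.14% of all genes and 11.3% of protein-coding genes. For the 15121 genes above 0 in some cell, the shares were, in the same order, 68.1%, 13.8%, 1.06% and 16.7%. That set leaves out genes listed at 0 throughout, whereas 8 of the 48 components were so listed. The shares of the components describe the list, whose members all encode proteins and were picked for their known roles, with earlier results of these data known.

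The values were mostly either 0 or high. Of the 672 values of 48 components in 14 cells, 396 (58.9%) were listed at 0, 125 (18.6%) lay above 0 and below 1, 38 (5.65%) lay from 1 to below 10, and 113 (16.8%) were at 10 or more, 69 of them at 100 or more. By number of cells, 16 components were undetected, 17 were detected in 1 to 3 cells, 8 in 4 to 6 cells, 2 in 7 to 10 cells, 3 in 11 to 13 cells and 2 in every cell. The widely detected components, in 7 or more cells, were Gdf10 among the ligands, Fstl1 among the secreted binding proteins, Eng and Tgfbr3 among the coreceptors, Tgfbr1 and Tgfbr2 among the signalling receptors, and Id3 among the targets. The latent TGF-beta binding proteins, the SMAD proteins and the corepressors and ligases had none in 7 or more cells.

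**Figure D1:**
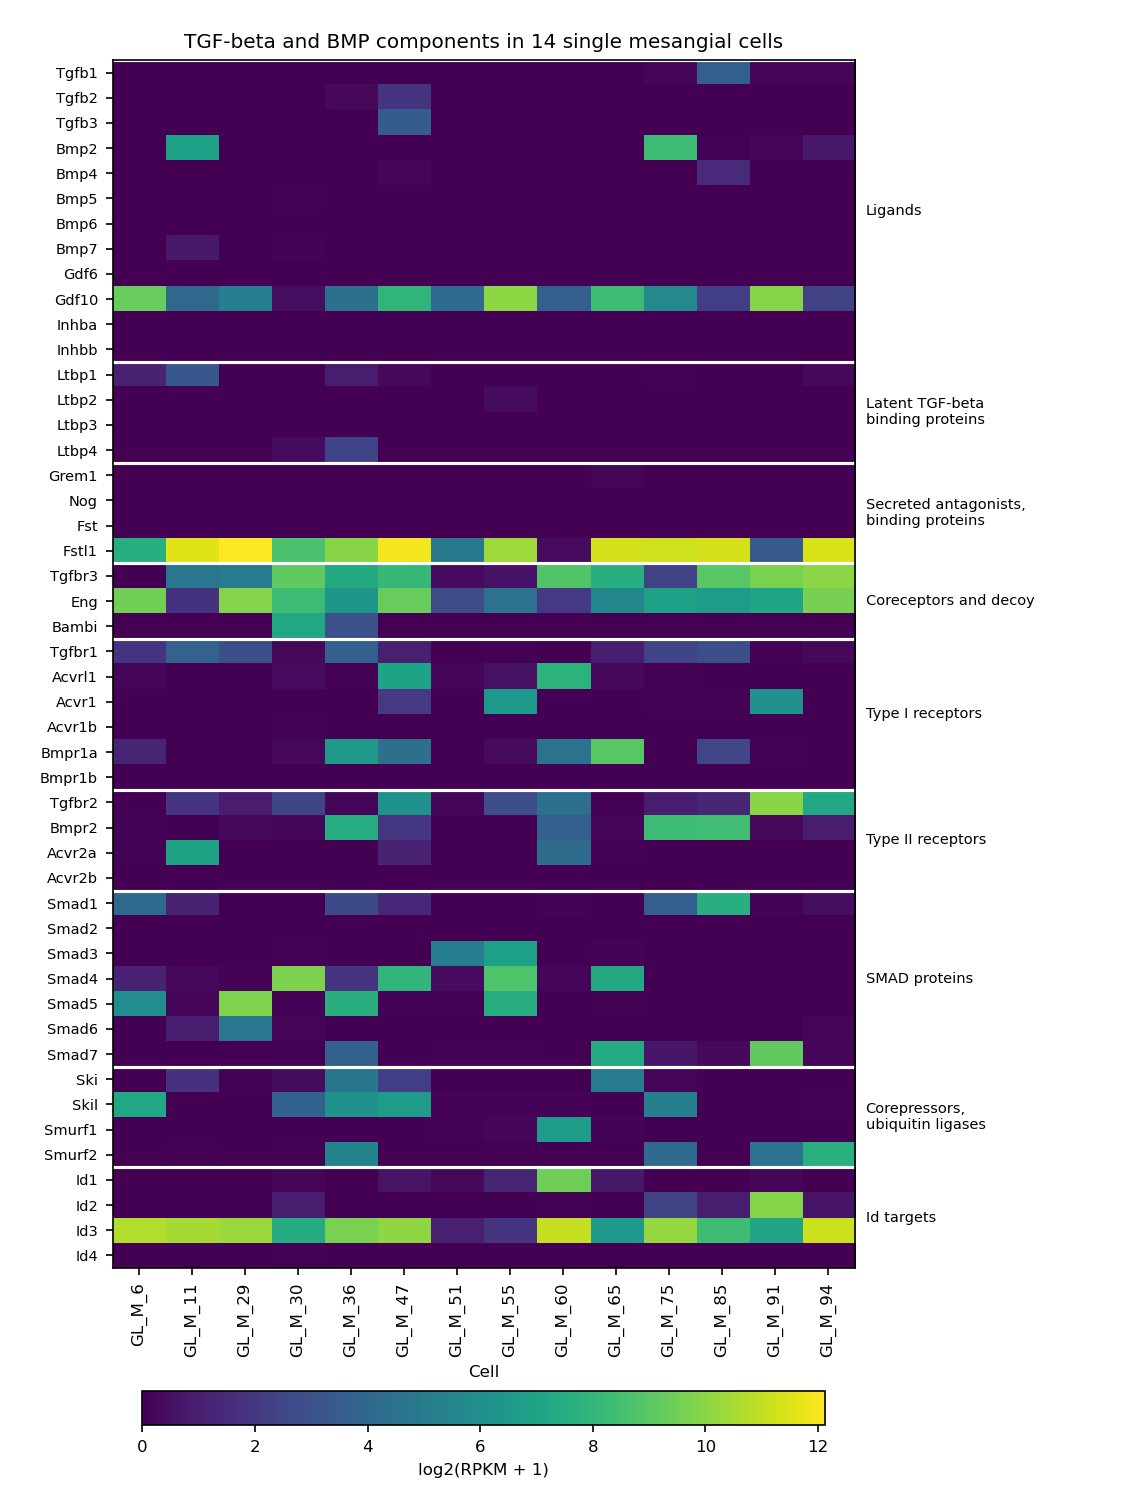
Level of each of the 48 components (rows, grouped by role) in each of the 14 cells (columns), as log2(RPKM + 1) on the colour scale, with 0 in the darkest colour. Rows of near-continuous signal belong to Gdf10, Fstl1, Tgfbr3, Eng and Id3, while most other rows are dark in most cells with isolated bright entries.

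Of the 4 Id genes, which encode helix-loop-helix proteins that bind other such factors and keep them from DNA, Id3 was nearly universal while Id1 and Id2 were each high in a single cell. Promoter stretches of Id2, Id3 and Id4 are shown because members of this family, known as targets of the same pathway, had such different patterns. Id1 matched no promoter entry, so its stretch is missing. The stretches span 250 bases before to 50 bases after the annotated start, from RefSeq on GRCm38.p6, and are printed 5′ to 3′ in the direction of the gene. A different gene annotation, GENCODE M21, starts Id3 at 136143497 and Id2, on the minus strand, at 25097140. The stretches of Id3 and Id2 thus lie inside those gene spans. Capitals mark CAGAC, or its reverse complement GTCTG, which is a SMAD binding element, and GGCGCC, a GC-rich element known from BMP-responsive promoters.
Id3, chr4:136143572-136143871, plus strand: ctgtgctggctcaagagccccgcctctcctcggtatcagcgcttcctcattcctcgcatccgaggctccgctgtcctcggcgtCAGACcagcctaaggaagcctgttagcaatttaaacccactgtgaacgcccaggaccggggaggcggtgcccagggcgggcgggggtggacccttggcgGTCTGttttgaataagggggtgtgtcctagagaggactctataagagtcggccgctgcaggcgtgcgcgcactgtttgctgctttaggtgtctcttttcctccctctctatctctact
Id2, chr12:25096043-25096342, minus strand: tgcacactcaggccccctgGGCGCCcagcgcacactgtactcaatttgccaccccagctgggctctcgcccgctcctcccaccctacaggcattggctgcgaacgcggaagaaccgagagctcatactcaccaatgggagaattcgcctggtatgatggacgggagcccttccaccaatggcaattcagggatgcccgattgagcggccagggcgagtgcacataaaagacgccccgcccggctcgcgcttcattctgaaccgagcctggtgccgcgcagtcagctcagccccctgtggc
Id4, chr13:48260866-48261165, plus strand: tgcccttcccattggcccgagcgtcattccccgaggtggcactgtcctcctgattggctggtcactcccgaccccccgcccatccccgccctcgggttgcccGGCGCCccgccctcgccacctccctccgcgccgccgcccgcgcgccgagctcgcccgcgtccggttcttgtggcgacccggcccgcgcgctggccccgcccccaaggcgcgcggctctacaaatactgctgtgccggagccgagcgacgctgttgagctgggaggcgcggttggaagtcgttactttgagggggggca
The Id3 stretch held CAGAC on either strand 2 times and no GGCGCC, whereas those of Id2 and Id4 held GGCGCC once each and no CAGAC. Such matches are common, since 49.6% of 32851 RefSeq promoter stretches of this length held CAGAC on either strand and 11.9% held GGCGCC. Of the 48 components 34 matched 1 or more promoter entries, 42 entries in all. Of these 34 genes, 18 held CAGAC in any entry and 12 held GGCGCC. These counts are per gene, unlike the shares per stretch above. A match describes letters in this window and says nothing of binding.

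Id3 had an RPKM of 1.10 in its lowest cell, a median of 975 and 2333 in its highest cell, GL_M_94. It was at 100 or more in 11 cells and at 92.5 in GL_M_65, and stood apart only in GL_M_51 and GL_M_55, at 1.10 and 2.59. On the log2(RPKM + 1) scale its mean was 8.30 ± 3.27 (SD, n = 14 cells of 1 mouse). The share of 14 of 14 cells has an exact Clopper-Pearson 95% interval of 76.8% to 100%, which covers the sampling of cells from 1 mouse only. The same interval is meant wherever a range of shares is given below.

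Id1 was at 703 in GL_M_60, at 1.38 in GL_M_55 and below 1 elsewhere, so that 99.6% of its summed RPKM came from GL_M_60. Id2 was at 968 in GL_M_91 and at 4.53 in GL_M_75, and GL_M_91 held 99.3% of its sum. Both had the same share of detected cells, 2 of 14 (1.78% to 42.8%). Id4 was above 0 only in GL_M_30, at 0.0473. Id1 and Id2 thus marked different cells, and in each of those cells Id3 was also high, at 2148 in GL_M_60 and 134 in GL_M_91.

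The cells with low Id3 also differed in podocyte transcripts. In GL_M_55, 5 of the 11 podocyte markers were high, among them Wt1 at 612, Cd2ap at 421 and Synpo at 195. In GL_M_51 2 of the 11 were high, with Cd2ap at 15.8, Wt1 at 0.135 and Synpo at 0.0534. The 11 markers summed to an RPKM of 2178 in GL_M_55 and 516 in GL_M_51, the 2 highest sums, against 0.427 to 448 in the other cells. A single gene can make most of such a sum, as Wt1 at 447 did in GL_M_29. Nphs1, Plce1 and Clic3 were listed at 0 in both cells. The part of these transcripts in the Id3 values was not tested.

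**Figure D2:**
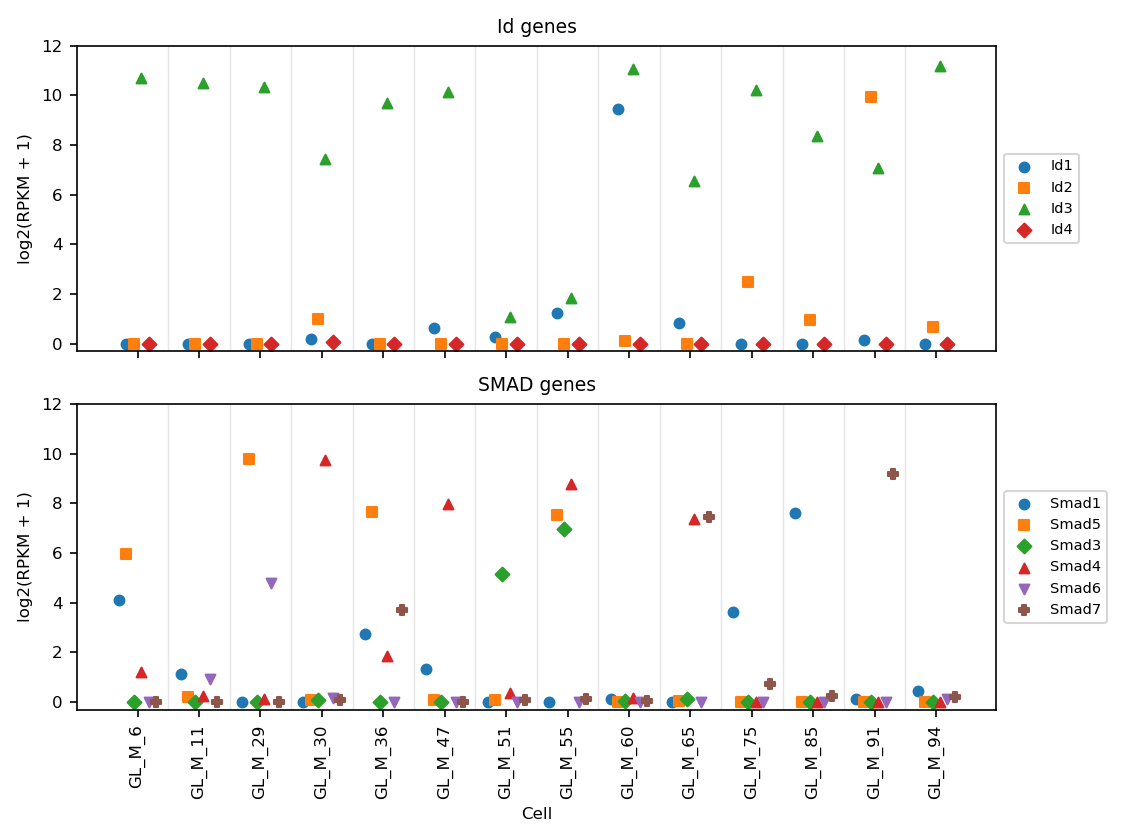
Levels of the Id genes (upper panel) and of 6 SMAD genes (lower panel) in each of the 14 cells, as log2(RPKM + 1). Id3 (green triangles) is high in every cell except GL_M_51 and GL_M_55, Id1 is high only in GL_M_60 and Id2 only in GL_M_91, and the SMAD genes are each high in 1 to 4 cells.

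Among the 12 ligands of the list, transcripts were scarce apart from Gdf10. The ligand Gdf11, which is outside the list and was also common, is given below with the other pathway genes. Of 12 ligands 6 were detected in some cell and 4 (Bmp6, Gdf6, Inhba and Inhbb) were listed at 0 throughout. Gdf10, also called BMP3B, a divergent member of the family related to Bmp3, had an RPKM of 0.376 in its lowest cell, GL_M_30, a median of 28.5 and 1078 in its highest cell, GL_M_55. Detection reached 13 of 14 cells (66.1% to 99.8%), and 11 were high. It was at 100 or more in 5 cells, GL_M_55, GL_M_91 at 955, GL_M_6 at 629, GL_M_65 at 317 and GL_M_47 at 247. Its mean log2 level was 5.57 ± 3.07 (SD, n = 14 cells).

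None of the 3 TGF-beta isoform genes was detected in more than 1 cell. Tgfb1, the isoform most studied in glomerular disease, was at 11.4 in GL_M_85 and at most 0.151 elsewhere. Tgfb2 was at 2.64 and Tgfb3 at 10.5, both in GL_M_47, and Tgfb3 was listed at 0 in the other 13 cells. Its exons overlap 2 other annotated genes over 12.4% of their length, which leaves that value less certain. Each isoform's share of 1 of 14 cells has an interval of 0.181% to 33.9%.

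Among the BMPs, Bmp2 was at 314 in GL_M_75 and 123 in GL_M_11 and below 1 elsewhere, and Bmp4 reached 1.74 in GL_M_85. Bmp7, a BMP of the developing nephron, was below 1 in every cell, with 0.749 in GL_M_11, and Bmp5 peaked at 0.0360. Bmp5 shares 46.7% of its exon length with an overlapping annotated gene. Inhba and Inhbb, the subunits of activins, were listed at 0 in all 14 cells, so that at most 23.2% of such cells could have a detected transcript by the same interval.

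Proteins that hold ligands outside the cell were represented almost entirely by Fstl1. The latent TGF-beta binding proteins, which tether latent TGF-beta to the matrix, were low, with Ltbp1 at 8.95 in GL_M_11 and 1.16 in GL_M_6, Ltbp4 at 4.37 in GL_M_36, and Ltbp2 and Ltbp3 at most 0.320 and 0.0151. The BMP antagonist Nog and the activin antagonist Fst were listed at 0 in all cells, and the BMP antagonist Grem1, a gene induced in diabetic kidney disease, peaked at 0.112 in GL_M_65.

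Fstl1, a secreted glycoprotein of the follistatin-related family, was the component with the highest median. It had an RPKM of 0.268 in its lowest cell, GL_M_60, a median of 1863 and 4463 in its highest cell, GL_M_29. It was high in 13 cells and at 100 or more in 11, with a mean log2 level of 9.01 ± 3.65 (SD, n = 14 cells). The exceptions were GL_M_60, GL_M_91 at 10.2 and GL_M_51 at 29.3, all below the 201 of the next cell, GL_M_6.

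Those 3 cells were also the most deeply sequenced, at 17.7 to 23.8 M reads, against 6.60 to 13.4 M reads in the other 11, and had the fewest detected genes, 1770 to 1894. Of the 12 components that were high in 4 or more cells, Fstl1 was the only one that lay lower in all 3 of them than in each of the other 11, compared with 1.43% of 2519 such genes of the table (36 genes). None of the 12 lay higher in all 3, against 7 of the 2519 genes. Over all 14 cells the log2 level of Fstl1 and the read total had a Pearson r of -0.88, the largest in size of the 12 components, and within the other 11 cells an r of -0.16 and a Spearman rho of -0.05, so the relation rests on the 3 deepest cells. The part of depth in the Fstl1 values was not tested.

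All 3 coreceptors and decoy receptors were detected, 2 of them in 11 or more cells. Eng, endoglin, binds ligands together with the signalling receptors and is best known from endothelium. It had an RPKM of 2.42 in its lowest cell, GL_M_11, a median of 108 and 928 in its highest cell, GL_M_29. It was detected in all 14 cells and high in 11, with a mean log2 level of 6.46 ± 2.82 (SD, n = 14 cells). The low cells were GL_M_11, GL_M_60 at 3.01 and GL_M_51 at 6.01, and the high ones after GL_M_29 were GL_M_94 at 804, GL_M_6 at 745 and GL_M_47 at 636.

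Eng was set beside the 12 endothelial markers other than Eng. Their summed RPKM was highest in GL_M_30, at 3809, where Eng was at 319, and next in GL_M_47, at 1439, where Eng was at 636. It was lowest in GL_M_51 and GL_M_55, at 2.33 and 10.8, where Eng was at 6.01 and 22.2. GL_M_29, with the highest Eng, had a sum of 460 with 4 of the 12 markers high, and GL_M_11, with the lowest Eng, had a sum of 776 with 2 high. Single genes made most of some sums. Esam was at 1272 in GL_M_47, where 3 of the 12 markers were high and Cdh5, Kdr, Flt1 and Egfl7 were listed at 0. Ehd3 was at 639 in GL_M_11. The part of endothelial transcripts in the Eng values was not tested.

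Tgfbr3, betaglycan, is a membrane proteoglycan that presents TGF-beta to the type II receptor. Its RPKM was 0 in its lowest cell, GL_M_6, with a median of 180 and 1041 in its highest cell, GL_M_94. Detected in 11 of 14 cells (49.2% to 95.3%), it was high in 10, with GL_M_91 at 815, GL_M_30 at 566 and GL_M_85 at 522 next in order. The undetected cells were GL_M_6, GL_M_51 and GL_M_55, and GL_M_75 lay between at 4.03. Bambi, a pseudoreceptor that lacks the kinase domain and blocks signalling, was at 148 in GL_M_30 and 7.06 in GL_M_36 and listed at 0 in the other 12 cells.

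**Figure D3:**
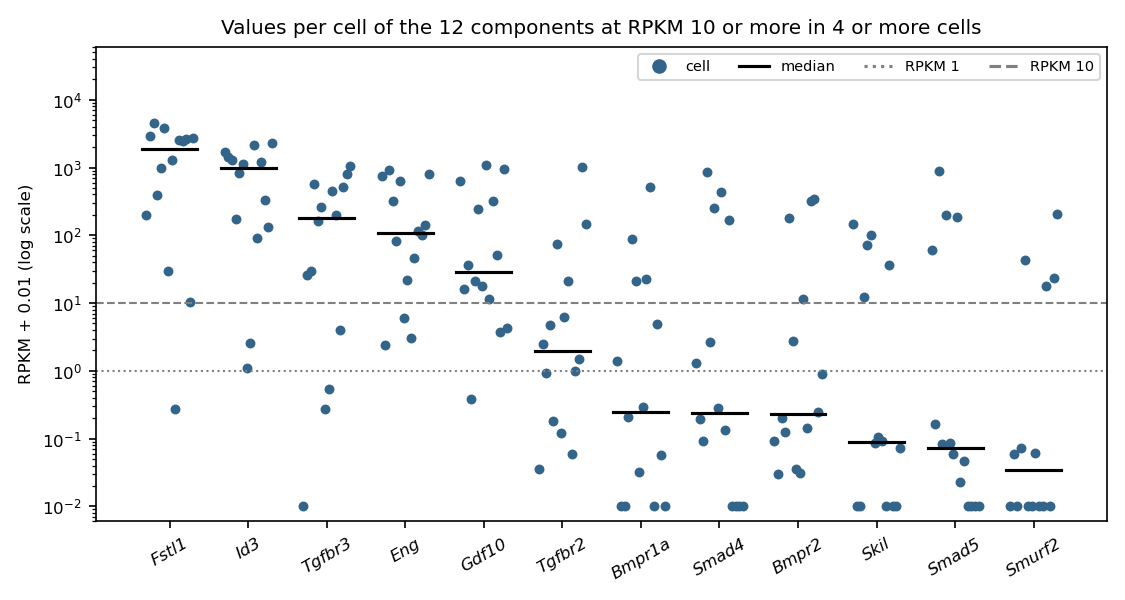
RPKM of the 12 components at 10 or more in 4 or more cells, on a log axis with 0.01 added so that values of 0 show at the bottom. Each point is a cell, each bar the median, and the dotted and dashed lines mark RPKM 1 and 10. The 5 leftmost components have medians from 28.5 to 1863, while each of the others has 4 or 5 cells at 10 or more and 6 to 10 cells below 1.

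The 2 signalling receptors for TGF-beta were each detected in 8 of 14 cells (28.9% to 82.3%), with 3 cells in common. Tgfbr1, the type I receptor, was low throughout, with a median of 1.07 and a highest value of 13.1 in GL_M_11, and it was high only there and in GL_M_36, at 12.3. Tgfbr2, the type II receptor that binds TGF-beta first, had a lowest value of 0.0261 in GL_M_6, a median of 1.98 and a highest value of 1007 in GL_M_91. It was also at 148 in GL_M_94, 74.7 in GL_M_47 and 21.1 in GL_M_60, and GL_M_91 alone held 79.4% of its sum. Its mean log2 level was 2.77 ± 3.09 (SD, n = 14 cells).

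Transcripts of both Tgfbr1 and Tgfbr2 were found together in 3 cells, GL_M_11, GL_M_47 and GL_M_85 (4.66% to 50.8%). Tgfbr1 alone was detected in 5 cells and Tgfbr2 alone in 5, and neither was in GL_M_51. With 10 as the limit no cell had both, while 2 had Tgfbr1 and 4 had Tgfbr2. In GL_M_91, where Tgfbr2 was highest, Tgfbr1 was at 0.0450. This count depends on the limit, since with any value above 0 the pair was present in 12 cells. Several calls also lay close to the limit of 1. Tgfbr2 was at 0.934 in GL_M_29 and 0.990 in GL_M_75, both counted as Tgfbr1 alone, and Tgfbr1 was at 1.12 in GL_M_47 and 1.02 in GL_M_65.

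The remaining type I receptors were restricted to fewer cells. Bmpr1a, a main BMP type I receptor also called ALK3, was listed at 0 in its lowest cells, with a median of 0.240 and a highest value of 510 in GL_M_65. It was detected in 6 cells, with GL_M_36 at 89.5, GL_M_60 at 22.4 and GL_M_47 at 21.1 also high. Acvrl1, or ALK1, a receptor known mainly from endothelium, was at 226 in GL_M_60 and 131 in GL_M_47 and at most 0.435 elsewhere. It stood at 0.259 in GL_M_30, the cell with the highest endothelial sum. Acvr1, or ALK2, was at 87.3 in GL_M_55, 69.2 in GL_M_91 and 3.10 in GL_M_47, and Acvr1b and Bmpr1b peaked at 0.0356 and 0.0238.

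Bmpr2, the BMP type II receptor, had a lowest value of 0.0203 in GL_M_11, a median of 0.217 and a highest value of 342 in GL_M_85. It was close to that in GL_M_75, at 321, and also high in GL_M_36 at 182 and GL_M_60 at 11.4. Although above 0 in every cell, it was below 1 in 9 of them, and its mean log2 level was 2.27 ± 3.31 (SD, n = 14 cells). Acvr2a, an activin type II receptor that BMPs also use, was at 129 in GL_M_11, 18.8 in GL_M_60 and 1.34 in GL_M_47, and Acvr2b was listed at 0 in all 14 cells.

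A BMP receptor pair was counted where any of Acvrl1, Acvr1, Bmpr1a and Bmpr1b was detected with any of Bmpr2, Acvr2a and Acvr2b. The pair was present in 4 cells, GL_M_36, GL_M_47, GL_M_60 and GL_M_85 (8.39% to 58.1%), with only a type I receptor in 4, only a type II receptor in 2 and neither in 4. GL_M_36 and GL_M_60 kept the pair with 10 as the limit, and 11 cells had it with any value above 0. The activin pair of Acvr1b with Acvr2a or Acvr2b was present in 0 cells. GL_M_47 and GL_M_85 were the cells with both the TGF-beta and the BMP pair.

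The 6 SMAD genes above 0 were each high in 1 to 4 cells. Among the BMP SMADs, Smad1 was at 196 in GL_M_85, 16.4 in GL_M_6 and 11.4 in GL_M_75, and it was detected in 6 cells. Smad5 was listed at 0 in its lowest cells, with a median of 0.0619 and a highest value of 878 in GL_M_29, followed by GL_M_36 at 202, GL_M_55 at 186 and GL_M_6 at 60.7. Smad1, Smad5 or both were detected in 8 cells, 4 of which also had Smad4.

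The TGF-beta SMADs were detected in 2 cells. Smad2 was listed at 0 in all 14 cells, and Smad3 was at 123 in GL_M_55 and 34.9 in GL_M_51 and at most 0.0813 elsewhere. These are the same 2 cells in which Id3 was lowest, and the part of podocyte transcripts in the Smad3 values was not tested. Smad4, the partner of both branches, was listed at 0 in its lowest cells, with a median of 0.231 and a highest value of 846 in GL_M_30. GL_M_55 at 440, GL_M_47 at 253 and GL_M_65 at 166 were also high, and 6 cells in all had it detected (17.7% to 71.1%).

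The inhibitory SMADs, which limit receptor signalling, were detected in 4 cells. Smad7 was at 572 in GL_M_91 and 176 in GL_M_65 and just above 10 in GL_M_36, and Smad6 was at 26.4 in GL_M_29. The highest Smad7 and the highest Tgfbr2 were thus in the same cell, GL_M_91, which was also the cell of Id2.

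Whole chains of transcripts from receptor to Smad4 were counted after the values had been seen. In 0 of 14 cells were Tgfbr1, Tgfbr2, a TGF-beta SMAD and Smad4 detected together (up to 23.2%). A BMP receptor pair with Smad1 or Smad5 was present in 3 cells, and with Smad4 as well in GL_M_36 and GL_M_47 (1.78% to 42.8%). With 10 as the limit, the receptor pair with Smad1 or Smad5 was left in 1 cell and the chain with Smad4 in 0. Since even Gapdh was below 1 in some cells, these counts limit detected transcripts and not the presence of the proteins.

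The nuclear corepressors Ski and Skil bind SMADs and hold back their target genes. Skil was listed at 0 in its lowest cells, with a median of 0.0794 and a highest value of 149 in GL_M_6, followed by GL_M_47 at 99.6, GL_M_36 at 72.2, GL_M_75 at 36.3 and GL_M_30 at 12.4. Ski was at 31.2 in GL_M_65 and 25.5 in GL_M_36. Smurf1 and Smurf2, ubiquitin ligases that mark receptors and SMADs for breakdown, were high in different cells. Smurf1 was at 99.4 in GL_M_60 alone, while Smurf2 had a median of 0.0245 and was at 205 in GL_M_94, 43.0 in GL_M_36, 23.3 in GL_M_91 and 18.1 in GL_M_75.

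Per cell, the number of detected components had a median of 10.5 (mean 10.8 ± 3.51, SD, n = 14 cells). It was lowest in GL_M_51, with 5, and highest in GL_M_47 and GL_M_36, with 18 and 17. The last 2 were also the cells with the most detected genes, 4842 and 5277. Across the 14 cells the number of components and the number of all genes detected, both counted from the same libraries, had a Pearson r of 0.79 and a Spearman rho of 0.49, and the number of components and the read total an r of -0.07 and a rho of -0.07. GL_M_60, with the fewest genes at 1770, had 11 components.

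GL_M_51 stood apart in the amount as well. Its 48 components summed to an RPKM of 90.4, or 0.0158% of its total RPKM, against 0.427% to 1.33% in the other 13 cells. Its highest components were Smad3 at 34.9, Fstl1 at 29.3 and Gdf10 at 17.7, and Eng and Id3 were its other detected ones.

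**Figure D4:**
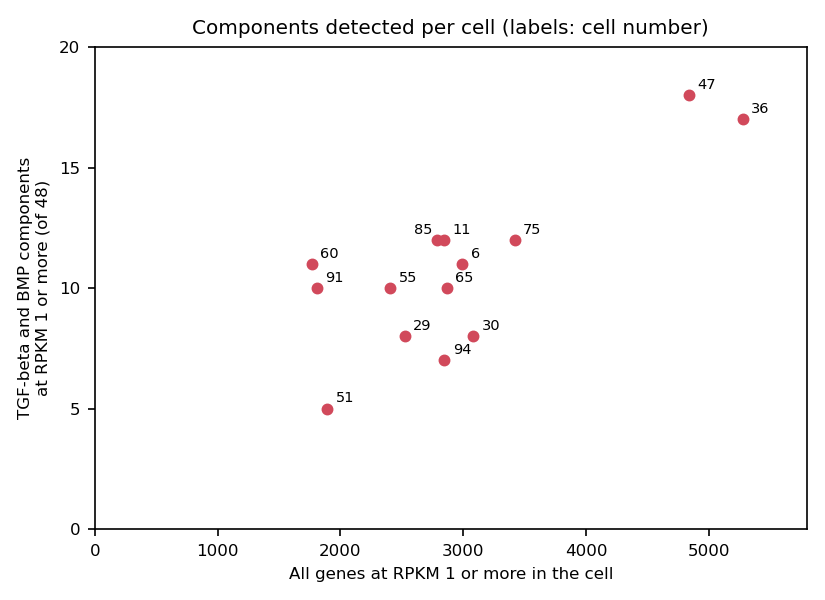
Number of the 48 components at an RPKM of 1 or more (vertical axis) against the number of all genes at 1 or more (horizontal axis) in each of the 14 cells, labelled by cell number. GL_M_36 and GL_M_47 lie at the upper right with 17 and 18 components, GL_M_51 lies lowest with 5, and the other 11 cells lie between 7 and 12.

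Likeness across cells was computed for a subset of the components. Among the 12 that were high in 4 or more cells, the 66 pairs had a median Pearson r of 0.14 on log2(RPKM + 1) over 14 cells, from -0.41 for Tgfbr3 and Smad5 to 0.56 for Tgfbr2 and Tgfbr3. The corresponding Spearman rho values were -0.54 and 0.68, and 0 pairs reached an r of 0.7 in size. The points of a pair share the library of each cell and its depth. Skil had an r of 0.76 with the number of genes detected per cell.

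Small values accompanied the high ones. The 28 components that were high in some cell had 100 values between 0 and 1, of which 77 were under 0.1% of the gene's highest cell. Smurf1, for example, was at 99.4 in GL_M_60 and at 0.0765 to 0.116 in 3 other cells. Whether reads passed between libraries was not tested, and the detection limit of 1 leaves most such values out. An exception is Id3 at 1.10 in GL_M_51, which is also under 0.1% of its highest cell, and with values under that share set to 0 Eng alone was detected in every cell.

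Other genes of the pathways were taken from a list of 87 names, of which 84 were in the table. In some cell 34 of them were detected, in 7 or more cells 11 and in every cell 2, and 34 were listed at 0 throughout. Of all genes of the table, 29.2% were detected in some cell, 5.93% in 7 or more cells and 0.454% in every cell. The shares of protein-coding genes were 41.8%, 9.01% and 0.701%. Of 19 further ligands 3 were detected in some cell. Gdf11, a ligand of the activin and myostatin branch, was high in 12 cells, with a median of 170 and a highest value of 1115 in GL_M_75, and was listed at 0 in GL_M_30. Like Gdf10, it was lowest in GL_M_30. Lefty1 was detected only in GL_M_60, at 114, and Gdf3 reached 1.52, in GL_M_30. Of 7 further receptors and coreceptors only Rgmb, a BMP coreceptor, was detected, at 62.8 in GL_M_85, and of 12 further antagonists only Twsg1, with 203 in GL_M_75.

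Genes of latency and activation were more common, with 6 of 10 detected in some cell and 3 in 7 or more. Itgav, the integrin chain alpha V that takes part in releasing TGF-beta from its latent complex, and Furin, the protease that cleaves the precursors, were each high in 7 cells, with medians of 8.02 and 6.90. Fbn1, the matrix protein fibrillin 1 that anchors latent complexes, was high in 4 cells and reached 163 in GL_M_85. Of 22 intracellular mediators and regulators 14 were detected in some cell and 4 were high in 7 or more. Sptbn1, a spectrin known to bind SMADs, was at 700 to 2742 in all 14 cells (mean log2 10.70 ± 0.66, SD, n = 14 cells), a much narrower range than that of Eng or Id3. Snx6, a sorting nexin, was high in 9 cells, and Fkbp1a, which binds type I receptors, and Usp9x, a deubiquitinase of Smad4, in 8 each.

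Of 14 transcripts known to rise with pathway activity, 9 were detected in some cell. Ccn2, connective tissue growth factor, had an RPKM of 191 to 1069 over all 14 cells, although 23.2% of its exon length overlaps another annotated gene. Col4a1, a basement membrane collagen chain, was high in 13 cells, with a median of 107 and 0.317 in GL_M_51. Fn1, fibronectin, was detected in 12 cells but never high, with a highest value of 7.34. These transcripts also respond to other signals, so their levels do not measure the activity of the pathways.

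On GRCm38 the most widely detected components lie on separate chromosomes and are all annotated as protein-coding, and each value covers the exons of the whole gene. Eng is on chromosome 2 from 32646595 to 32682669 (plus strand) and Id3 on chromosome 4 from 136143497 to 136145755 (plus). Fstl1 is on chromosome 16 from 37776873 to 37836514 (plus), Gdf10 on chromosome 14 from 33923587 to 33937983 (plus) and Tgfbr3 on chromosome 5 from 107106570 to 107289629 (minus). Little of their transcript sequence recurs in other annotated genes, the share of 50-base words being 0% for Id3, 0.288% for Eng, 0.601% for Gdf10, 3.85% for Tgfbr3 and 5.35% for Fstl1.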

How the data were processed

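RPKM values for 14 single cells were analysed. Per the submitters' processing notes, TopHat2 2.0.12, HTSeq 0.6.1 and the build mm10 were used, and the RPKM were deposited by the authors. Not given in the sources are the annotation, gene lengths, read length, filter on cells and handling of multiply mapping reads. Of 35271 table genes, 34488 matched a symbol in GENCODE M21 (GRCm38), and all 48 components were found. The components and the gene lists were chosen with earlier results of these data known.

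For single-transcript genes, each deposited RPKM was multiplied by the exon length in GENCODE M21. The commonest product in a cell was taken as a single read, or as a small whole number of reads where that made more values whole. This gave read totals of 6.60 to 23.8 M reads. They rest on the GENCODE M21 lengths, since the lengths behind the RPKM are not given. For single-transcript genes, 84.7% to 89.7% of values under 50 reads were then within 0.02 of a whole number. Tested on simulated reads (14953 genes), the method recovered 14 of 14 totals within 0.1%.

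Detection was set at an RPKM of at least 1, and levels were log2(RPKM + 1). Means ± SD were restricted to genes with no value of 0. No p-value was computed, because 14 cells of 1 mouse are 1 biological sample. For shares of cells, Clopper-Pearson 95% intervals are given. Components high in 4 or more cells are given with lowest, median and highest values and the others by highest values and counts. Of the other pathway genes, those high in 7 or more cells and the 3 with the highest medians in each sublist were eligible to be named. A few listed genes are not reported here. Alternatives were other detection limits, a pseudocount of 0.1, cells rescaled to the same total, low values set to 0 and cells left out. Python 3.11.15, pandas 2.3.3, numpy 2.4.6 and scipy 1.17.1 were used.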

Additional observations from a re-analysis of the deposited data

How the results depend on the processing

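The counts depended mainly on the detection limit. With any value above 0 in place of 1, 21 components in place of 7 were detected in 7 or more cells, 6 in place of 2 in all 14, and a median of 19 in place of 10.5 per cell. The TGF-beta, BMP and activin receptor pairs were then present in 12, 11 and 2 cells, in place of 3, 4 and 0. With a limit of 5 the TGF-beta pair was in 0 cells, the BMP pair in 2, and 0 components were in all 14 cells. A limit of 10 gave the same 3 counts, 0, 2 and 0. Setting values under 0.1% of a gene's highest cell to 0 left 1 component in every cell. Among genes above 0 in some cell, 68.1% were detected, in place of 29.2% of all genes.

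Leaving out each cell in turn gave 30 to 32 components detected in some cell, 7 in 7 or more cells, 2 to 3 in every cell, 2 to 3 cells with the TGF-beta pair and 3 to 4 with the BMP pair, and 0 with the activin pair. Without GL_M_51 and GL_M_55, chosen after seeing the data, these counts were 31, 9 (in 6 or more of the remaining 12 cells), 2, 3, 4 and 0. With cells rescaled to the same total, the 48 medians and the 6 means moved by no more than 1 SD over the cells. The same held for the 6 means with a pseudocount of 0.1. This is a loose limit, since the SD behind the 6 means was 2.82 to 3.65 log2 units. A median of 0 cannot move with rescaling, so sizeable shifts of a mean or median are not excluded. No paired analysis was possible because there is 1 group. The number of cells, 14 from 1 mouse, limits every share, and the Gapdh values below 1 in some cells limit what an undetected component means.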
